A study of Mus musculus with 9 samples.

Results

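The genes described here are 10 genes of the chamber myocardium programme and of Nkx2-5 target regulation, taken by symbol from the 48397 gene symbols counted in each library. They are the natriuretic peptide genes Nppa and Nppb, the muscle cofactor genes Ankrd1 and Hopx, the Iroquois factor genes Irx3, Irx4 and Irx5, the proto-oncogene Mycn, and the repressor genes Tbx2 and Tbx3. All 10 were found and all 10 passed the low-count filter, with every library included and with deletion 2 left out. The question put to them was whether genes of chamber-type myocardium and the pair Tbx2 and Tbx3 stood at different levels in outflow tracts that lack the Nkx2-5 enhancer.

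The tissue was the cardiac outflow tract, dissected from C57BL/6J embryos at embryonic day 12.5, and its RNA was sequenced in bulk. The 5 enhancer-deletion libraries carry the genotype Nkx2-5delta-enh/delta-enh, a homozygous deletion of an Nkx2-5 enhancer active in the anterior second heart field, and the 4 wild-type libraries come from Nkx2-5+/+ littermates. Samples are numbered within a genotype, and the labels do not state how many embryos went into a sample; the p-values therefore describe variation among samples that may in part be technical. Gene counts per library summed to between 27707435 and 49094225 reads.

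The outflow tract is the vessel-like end of the embryonic heart tube, through which the ventricles empty. Working myocardium of the atria and ventricles switches on a chamber programme that includes Nppa, whereas the myocardium of the outflow tract and atrioventricular canal keeps an earlier, primary character. Nkx2-5 is a homeodomain factor that acts with GATA and T-box partners: with the activator Tbx5 it turns chamber genes on, and with the repressors Tbx2 and Tbx3 it keeps them off outside the chambers.

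That opposition is known best from the Nppa promoter, where a T-box site and an Nkx2-5 site lie side by side and, in the rat gene, mediate repression by Tbx2. The 250 bases before the RefSeq start of the mouse Nppa gene are shown because Nppa is the textbook target of this opposition and differed most between libraries. Capitals mark matches to TNAAGTG, the core of the Nkx2-5 site. They also mark the element GGTGTGA that T-box factors bind. A further motif searched was AGATAA, the site of GATA factors. Each was searched on both strands, and no match overlapped another; the sequence is from RefSeq on GRCm38.p6, read 5′ to 3′ on the gene's strand.
Nppa, plus strand, chr4:148000472-148000721: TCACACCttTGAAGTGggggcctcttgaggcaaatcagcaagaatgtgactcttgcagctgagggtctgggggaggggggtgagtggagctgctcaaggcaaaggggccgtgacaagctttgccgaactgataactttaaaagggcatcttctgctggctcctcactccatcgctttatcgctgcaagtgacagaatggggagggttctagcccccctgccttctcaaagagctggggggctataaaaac
In the Nppa window the T-box match began 250 bases and the Nkx2-5 match 241 bases before the start. In the RefSeq windows of the other genes, Nppb held a GATA match 84 bases before its start, and Ankrd1 a T-box match at 76 and a GATA match at 47 bases. Within the gene as GENCODE M21 annotates it lie 112 of the 250 bases of the Nppb window and all 250 of the Ankrd1 window. Of 32851 RefSeq windows of this length, 10.1% held the Nkx2-5 letters, 3.33% the T-box letters and 9.99% the GATA letters. Windows were found for 7 of the 10 genes, and those of Hopx, Irx3, Irx4 and Mycn did not contain these letters. Of these, the Irx3 window and a second Hopx window lie wholly within the annotated gene, and those of Mycn (78 bases) and Irx4 (18 bases) partly.

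Nkx2-5 itself stood at 17.5 ± 4.64 CPM (SD, n = 5) in deletion libraries and 36.3 ± 11.9 CPM (SD, n = 4) in wild type (CPM are read counts scaled to a common library size with TMM factors). Its log2 fold change, deletion over wild type, was -1.05 (SE 0.26, unadjusted p = 0.00225, edgeR adjusted p = 0.896; exact permutation p = 0.0238). Deletion 2 had the highest Nkx2-5 of the deletion libraries, at 24.4 CPM, above wild type 1 at 18.8 CPM, so the groups overlapped.

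Across all 9 libraries, none of the 10 genes separated the genotypes. edgeR's quasi-likelihood test called 0 of the 10 at an adjusted p of 0.05, as DESeq2 (which gave no p for Nppa) and limma-voom did, and 0 of the 10 had an unadjusted edgeR p under 0.05, where 5.27% of the 16522 genes tested did. Over all genes edgeR called 0, or 0%, with 870 at an unadjusted p under 0.05; DESeq2 called 38 (0.201%) and limma-voom 4 (0.0242%). At an unadjusted p under 0.05, DESeq2 gave 1 of the 10 (Ankrd1), where 4.74% of genes were, and limma-voom 2 (Ankrd1 and Tbx2), where 6.25% were. The groups overlapped in all 10 genes, while 1.8% of tested genes had groups that did not overlap. In the plot of CPM by library, deletion 2 was the highest of all 9 for 6 of the 10 genes, namely Nppa, Nppb, Hopx, Irx3, Irx5 and Tbx3. Without deletion 2 edgeR again called 0, and 2 of the 10 (Nppa and Hopx, both lower in the deletion) had an unadjusted p under 0.05, where 5.33% of 16278 genes were under it and 3.5% were under it and lower. DESeq2 without deletion 2 gave 3 of the 10 (Nppa, Hopx and Irx4), where 4.91% of genes were.

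**Figure D1:**
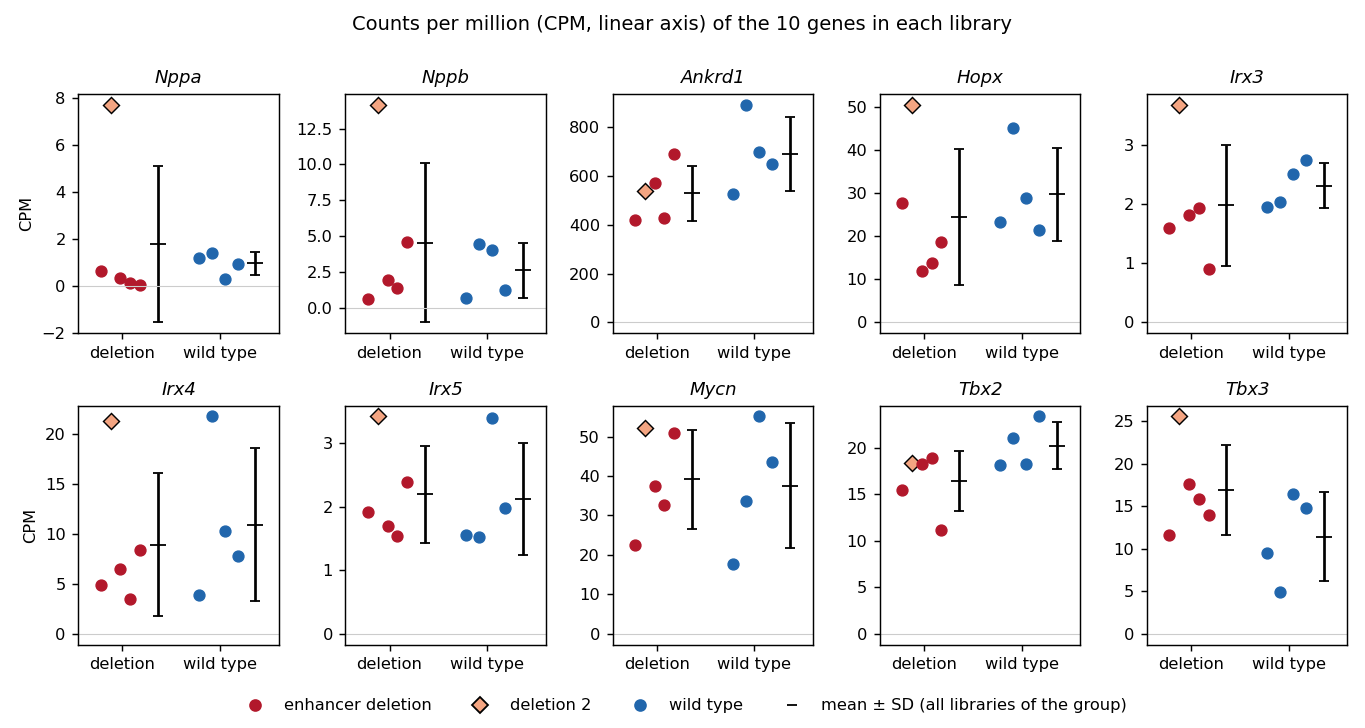
CPM (linear axes, each gene on its own scale) of the 10 genes in 5 enhancer-deletion libraries (left in each panel, deletion 2 as an orange diamond) and 4 wild-type libraries (right). Black bars are the group mean ± SD. Deletion 2 held 7.71 CPM of Nppa and 14.1 CPM of Nppb, above every other library.

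The natriuretic peptide genes were scarce in the outflow tract and dominated by deletion 2. Nppa (chr4:148000722-148002079, plus strand; mm10, GENCODE M21, as for all genes below, each protein coding) encodes atrial natriuretic peptide, the classical marker of chamber myocardium. Its level was 0.624, 7.71, 0.334, 0.143 and 0.0531 CPM in deletions 1 to 5, against 1.20, 1.42, 0.291 and 0.944 CPM in wild types 1 to 4. Deletion 2 thus held 5.45 times the next highest library, while the other 4 deletion libraries were at or below 0.624 CPM and 3 of the 4 wild types were above that.

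These levels rested on few reads. The counts of Nppa were 31, 221, 12, 4 and 2 in deletions 1 to 5, against 43, 57, 10 and 39 in wild types 1 to 4. The exact Poisson 95% interval was 193 to 252 counts for deletion 2 and 0.242 to 7.22 counts for deletion 5; such intervals cover counting error only, since reads without molecular identifiers are not independent molecules. With all libraries the log2 fold change of Nppa was 0.87 (SE 1.21, edgeR adjusted p = 0.948; exact two-sided permutation p = 0.603). Without deletion 2 it was -1.69 (SE 0.73, unadjusted p = 0.0424, edgeR adjusted p = 0.901; exact permutation p = 0.0857), with the 4 remaining deletion libraries at 0.288 ± 0.253 CPM (SD, n = 4) and wild type at 0.962 ± 0.487 CPM (SD, n = 4). The sign of Nppa was thus set by 1 library. In the fit with a replicate block, which weighs deletion 2 against wild type 2, it was -0.18 (edgeR adjusted p = 0.983).

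Nppb (chr4:147985788-147987205, plus strand) encodes the B-type natriuretic peptide and lies next to Nppa, with 13.5 kb between the gene bodies. Its level was 0.624, 14.1, 1.98, 1.39 and 4.62 CPM in deletions 1 to 5, against 0.695, 4.42, 4.07 and 1.23 CPM in wild types 1 to 4. Deletion 2 was again the highest, at 3.06 times the next library, and deletion 5, at 4.62 CPM, was just above wild type 2. The pair did not run in parallel elsewhere: deletion 5 had the lowest Nppa of any library and the second highest Nppb. The log2 fold change of Nppb was 0.80 (SE 0.88, edgeR adjusted p = 0.944; exact permutation p = 0.730), and without deletion 2 it was -0.27 (SE 0.69, edgeR adjusted p = 0.970; exact permutation p = 0.857).

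Ankrd1 had the smallest unadjusted p of the 10 genes with all libraries, although it did not pass the test. The gene (chr19:36111961-36120099, minus strand) encodes a cardiac ankyrin repeat protein that binds titin in the sarcomere, also enters the nucleus as a cofactor, and has been described as dependent on Nkx2-5. It was by far the most abundant of the 10 genes, at 419, 537, 572, 428 and 691 CPM in deletions 1 to 5, against 527, 891, 699 and 650 CPM in wild types 1 to 4. Of the 5 deletion libraries, 4 were below the wild-type median and 2 were below every wild type, while wild type 1 lay within the range of the deletion libraries.

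The mean of Ankrd1 was 529 ± 113 CPM (SD, n = 5) in deletion libraries and 692 ± 151 CPM (SD, n = 4) in wild type. The log2 fold change was -0.39 (SE 0.18, unadjusted p = 0.0585, edgeR adjusted p = 0.896; exact permutation p = 0.111). Leaving out deletion 2, where Ankrd1 was not raised, gave -0.39 (SE 0.19, edgeR adjusted p = 0.901), and every fit that left out 1 library gave a value below 0, between -0.50 and -0.24 (without wild type 2). Ankrd1 was lower in the deletion library in 4 of 4 same-numbered pairs, although the labels do not state that equal numbers were matched. In the replicate-block fit, which assumes such matching, Ankrd1 was at -0.49 (SE 0.11, unadjusted p = 0.00288, edgeR adjusted p = 0.860). In that fit 1 of the 10 genes was under 0.05 unadjusted, where 4.84% of all genes were.

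Hopx (chr5:77086988-77115121, minus strand) encodes a small homeodomain protein that does not bind DNA but restrains serum response factor, and lies downstream of Nkx2-5 in the mouse heart. Its level was 27.8, 50.5, 11.9, 13.9 and 18.8 CPM in deletions 1 to 5, against 23.3, 45.3, 29.0 and 21.6 CPM in wild types 1 to 4. Deletions 3, 4 and 5 were below every wild type, and deletion 2 was above every wild type. Hopx had a log2 fold change of -0.28 (SE 0.41, edgeR adjusted p = 0.948), and without deletion 2 it was -0.71 (SE 0.30, unadjusted p = 0.0387, edgeR adjusted p = 0.901; exact permutation p = 0.114). Without wild type 2, the wild type with the most Hopx, it was -0.0051.

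The 3 Iroquois genes encode homeodomain factors of ventricular myocardium. Irx4 (chr13:73260479-73269608, plus strand) is restricted to the ventricles, where it holds down atrial genes in the chick and mouse, while Irx3 acts in the ventricular conduction system and Irx5 in the transmural gradient of repolarization. Irx4 stood at 4.85, 21.3, 6.49, 3.49 and 8.37 CPM in deletions 1 to 5, against 3.89, 21.8, 10.3 and 7.82 CPM in wild types 1 to 4. Deletion 2 and wild type 2 were alone above 20 CPM.

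The log2 fold change of Irx4 was -0.30 (SE 0.58, edgeR adjusted p = 0.963; exact permutation p = 0.611). It was -0.91 (SE 0.47, edgeR adjusted p = 0.901) without deletion 2 and 0.28 without wild type 2, so these 2 libraries decided its size and its sign.

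Irx3 (chr8:91798525-91802067, minus strand) stood at 1.59, 3.66, 1.81, 1.92 and 0.903 CPM in deletions 1 to 5, against 1.95, 2.04, 2.499 and 2.74 CPM in wild types 1 to 4. All deletion libraries other than deletion 2 were below every wild type, by as little as 1.92 CPM in deletion 4 against 1.95 CPM in wild type 1. This was the 1 gene of the 10 whose groups did not overlap without deletion 2, where 3.35% of tested genes had no overlap. Its log2 fold change was -0.22 (SE 0.38, edgeR adjusted p = 0.959), and without deletion 2 -0.56 (SE 0.32, edgeR adjusted p = 0.901; exact two-sided permutation p = 0.0286, the smallest that 4 against 4 libraries allow).

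Irx5 (chr8:92357625-92376286, plus strand) stood at 1.91, 3.42, 1.70, 1.53 and 2.39 CPM in deletions 1 to 5, against 1.56, 1.51, 3.40 and 1.99 CPM in wild types 1 to 4. Deletion 2 and wild type 3 were the high libraries and the groups spanned the same range. Its log2 fold change was 0.05 (SE 0.36, edgeR adjusted p = 0.995), -0.16 (SE 0.34) without deletion 2 and 0.38 without wild type 3.

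Mycn (chr12:12936093-12941914, minus strand), which drives growth of the embryonic myocardium and is repressed by Tbx2 in mouse hearts without Tbx20, varied more within a genotype than between them. It stood at 22.6, 52.3, 37.4, 32.6 and 50.9 CPM in deletions 1 to 5, against 17.7, 33.6, 55.1 and 43.6 CPM in wild types 1 to 4. Replicate 1 was the lowest library of both genotypes. Deletion over wild type, its log2 fold change was 0.06 (SE 0.33, edgeR adjusted p = 0.995; exact permutation p = 0.778), -0.17 without wild type 1 and 0.31 without wild type 3.

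Tbx2 and Tbx3, the T-box repressors of non-chamber myocardium, lay on opposite sides of 0. Tbx2 (chr11:85832551-85841948, plus strand) stood at 15.4, 18.4, 18.3, 18.9 and 11.2 CPM in deletions 1 to 5, against 18.2, 21.1, 18.3 and 23.4 CPM in wild types 1 to 4. All 5 deletion libraries were below the wild-type median and 2 were below every wild type, but 3 lay between 18.3 and 18.9 CPM, beside wild types 1 and 3. Tbx2 thus had a log2 fold change of -0.30 (SE 0.17, edgeR adjusted p = 0.896; exact permutation p = 0.159), and deletion 2 hardly touched it, with -0.34 (SE 0.18) in its absence.

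Tbx3 (chr5:119670669-119684724, plus strand) stood at 11.6, 25.5, 17.5, 15.8 and 13.9 CPM in deletions 1 to 5, against 9.54, 4.89, 16.4 and 14.7 CPM in wild types 1 to 4. Deletions 2 and 3 were above every wild type, and wild types 1 and 2 were below every deletion library. For Tbx3 the log2 fold change was 0.56 (SE 0.34, edgeR adjusted p = 0.901; exact permutation p = 0.151). It was 0.37 (SE 0.33) without deletion 2 and 0.31 without wild type 2, the library with the least Tbx3. Tbx3 was higher in the deletion library in 4 of 4 same-numbered pairs, again a pairing that the labels do not state. The replicate-block fit gave 0.67 (SE 0.40, unadjusted p = 0.141, edgeR adjusted p = 0.899).

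**Figure D2:**
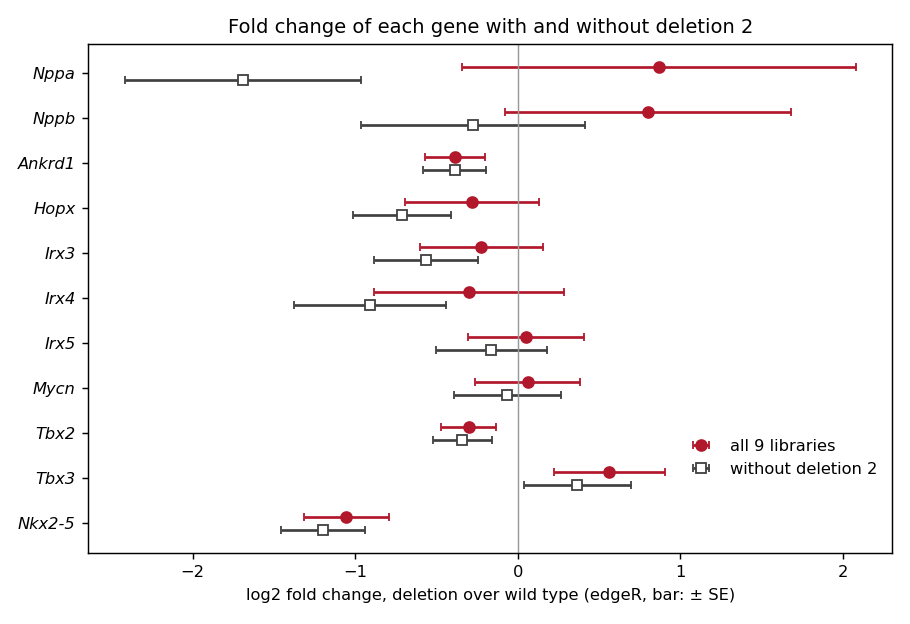
Log2 fold change (deletion over wild type, edgeR, bars ± SE) of the 10 genes and of Nkx2-5, with all 9 libraries (red circles) and without deletion 2 (open squares). Nppa moves across 0, from 0.87 with all libraries to -1.69 without deletion 2, while Ankrd1 and Tbx2 keep their place.

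Set against each other, the 7 chamber-type genes (Nppa, Nppb, Ankrd1, Hopx, Irx3, Irx4 and Irx5) had a median log2 fold change of -0.22 and Tbx2 and Tbx3 a mean of 0.13, where the median over all tested genes was 0.0029. Without deletion 2 the chamber-type median was -0.56, the mean of Tbx2 and Tbx3 0.01 and the median of all genes -0.0021. Of the 7, 4 were below 0 with all libraries, as were 49.4% of tested genes, and 7 were below 0 without deletion 2, as were 50.4%. Since the 7 share the same libraries, and were chosen with earlier results of these data known, these counts are descriptions. Without wild type 2 the chamber-type median was -0.0051.

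In single libraries, the mean log2 CPM of the 7 chamber-type genes minus that of Tbx2 and Tbx3 was -1.41, -0.21, -1.76, -2.09 and -1.22 in deletions 1 to 5, against -1.27, 0.10, -1.07 and -1.42 in wild types 1 to 4. Wild type 2, with the least Tbx3, and deletion 2 had the highest differences, and the remaining 7 libraries overlapped between genotypes. The difference averaged -1.34 ± 0.71 (SD, n = 5) across deletion libraries and -0.92 ± 0.69 (SD, n = 4) in wild type, and the 4 deletion libraries other than deletion 2 averaged -1.62 ± 0.38 (SD, n = 4). The gap between genotypes was -0.42 with all libraries, -0.71 without deletion 2, -0.24 without deletion 4 and -0.08 without wild type 2; each of these libraries moved it by more than 1.5 times. In the plot of the 2 scores against each other, deletion 2 was high in chamber-type genes and in Tbx2 and Tbx3 at once.

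**Figure D3:**
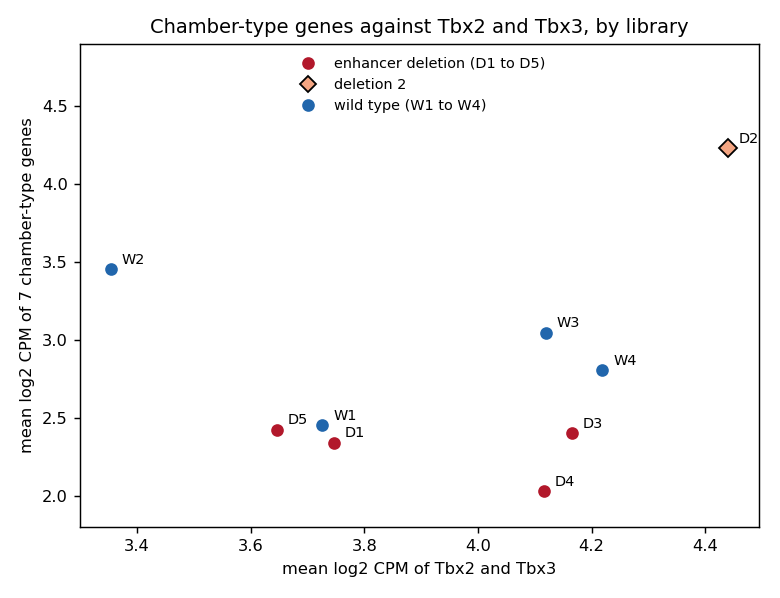
Mean log2 CPM of the 7 chamber-type genes (vertical axis) against that of Tbx2 and Tbx3 (horizontal axis), each point 1 library, with deletions D1 to D5 and wild types W1 to W4. Deletion 2 lies apart at 4.44 on the horizontal and 4.23 on the vertical axis. The other deletion libraries lie between 2.03 and 2.42 on the vertical axis and wild types between 2.45 and 3.45. Deletion 5 (2.42) and wild type 1 (2.45) nearly touch. How often means over 7 genes separate in this way was not computed. For single genes in CPM, without deletion 2, the groups did not overlap in 3.35% of tested genes. Each of the 7 genes counts equally in the mean, and Nppa rested on 12, 4 and 2 counts in deletions 3 to 5.

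Per kilobase of annotated exon, which allows levels of different genes to be compared, Ankrd1 stood at 183 ± 39.0 CPM per kb (SD, n = 5) across deletion libraries and 240 ± 52.4 CPM per kb (SD, n = 4) in wild type, and was the only gene whose range did not meet that of the next in order. In wild type it was followed by Hopx (19.7 CPM per kb), Mycn (11.4), Tbx2 (5.58), Irx4 (4.20), Nppb (3.34), Tbx3 (1.72), Nppa (1.11), Irx3 (0.834) and Irx5 (0.676), with ranges of neighbours that overlapped throughout. In the deletion Nppb came between Mycn and Tbx2, with a mean of 5.82 CPM per kb that rested on deletion 2, and the other genes kept their order.

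Deletion 2, the highest library for Nppa, Nppb, Hopx, Irx3, Irx5 and Tbx3, also differed from the rest in markers of another tissue. Of 11 neuron markers 9 were highest in deletion 2, where their summed level was 3163 CPM; it was 129 to 167 CPM in the other deletion libraries and 119 to 173 CPM in wild type. Of 5 Schwann cell and glia markers 4 were highest there, with 181 CPM in deletion 2, 21.7 to 52.4 CPM in the other deletion libraries and 9.59 to 54.7 CPM in wild type. Smooth muscle and epicardial markers ran the other way: the 4 smooth muscle markers summed to 1457 CPM in deletion 2, 1780 to 2502 CPM in the other deletion libraries and 2446 to 2735 CPM in wild type, and the 6 epicardial markers to 345 CPM in deletion 2, 488 to 652 CPM in the other deletion libraries and 630 to 919 CPM in wild type, with no marker of either list at 0. Wild type 2 had neuron markers at 124 CPM and the most cardiomyocyte markers of all libraries, at 18008 CPM. It had as much Irx4 as deletion 2, at 21.8 CPM, and nearly as much Hopx, at 45.3 CPM. The other genes that were highest in deletion 2 were lower in wild type 2. They were Nppa (1.42 CPM), Nppb (4.42 CPM), Irx3 (2.04 CPM), Irx5 (1.51 CPM) and Tbx3 (4.89 CPM). The part of cell composition in the levels of the 10 genes was not tested.

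Heart muscle markers were mixed in deletion 2. The 8 cardiomyocyte markers summed to 13234 CPM in deletion 2, 11043 to 15001 CPM in the other deletion libraries and 7554 to 18008 CPM in wild type; none was highest in deletion 2 and none was at 0 in any library. The 4 ventricular markers, which include Irx4, summed to 1816 CPM in deletion 2, 1064 to 1621 CPM in the other deletion libraries and 884 to 2348 CPM in wild type. Myl2, the ventricular myosin light chain gene, was at 667 CPM in deletion 2, at most 492 CPM in the other deletion libraries and at most 839 CPM in wild type. Hey2, a repressor gene of ventricular muscle, was highest in deletion 2 of all libraries, at 91.4 CPM, against 60.3 to 79.1 CPM in the other deletion libraries and 64.6 to 82.2 CPM in wild type. The 4 atrial markers, which include Nppa, summed to 441 CPM in deletion 2, 331 to 449 CPM in the other deletion libraries and 349 to 687 CPM in wild type. Of these 4, Nppa and Nr2f2, an atrial identity factor, were highest in deletion 2 of all libraries, with Nr2f2 at 44.3 CPM there, 14.2 to 25.9 CPM in the other deletion libraries and 15.4 to 35.4 CPM in wild type. Sln was lowest in deletion 2, at 9.25 CPM, and Myl4 lay within the range of the other libraries.

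Wild type 1 had the least heart muscle RNA, with 7554 CPM of cardiomyocyte markers against 15867 to 18008 CPM in the other wild types. It also had the least Ankrd1, Irx3, Irx4, Nppb, Mycn, Tbx2 and Nkx2-5 of the wild types, though Tbx2 was close to wild type 3 (18.2 against 18.3 CPM). In bulk tissue fewer cells of a type and less RNA per cell cannot be told apart. Divided by the summed cardiomyocyte markers, a scaling chosen after the values were seen, Ankrd1 was 41.5 ± 6.07 (SD, n = 5) across deletion libraries and 50.7 ± 13.4 (SD, n = 4) in wild type per 1000 CPM of markers, with ranges of 37.8 to 52.2 and 39.5 to 69.8. On this scale the groups overlapped in all 10 genes, and Nkx2-5 did not overlap, at 1.03 to 1.84 in the deletion and 2.33 to 2.84 in wild type. In CPM the groups of Nkx2-5 did overlap, with wild type 1 at 18.8 CPM and deletion 2 at 24.4 CPM. The summed markers include Nkx2-5 itself, and the share of all genes without overlap on this scale was not computed.

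The names of the deposited files carry a number that splits the libraries; what it stands for is not given in the sources used here. Deletions 1 and 2 share the first number with wild types 1 and 2, deletions 3 and 4 share the second with wild types 3 and 4, and deletion 5 has its own. Within the second number all 7 chamber-type genes were below 0, with a median of -0.73, where 50% of tested genes were. Within the first, 1 of the 7 was below 0, with a median of 0.41, where 48% of tested genes were. Deletion 2 belongs to the first number. The other deletion library there, deletion 1, was below wild types 1 and 2 in Nppa, Nppb, Ankrd1 and Irx3. Deletion 1 was between them in Hopx and Irx4, and above both in Irx5. A fit of the first number without deletion 2 was not run.

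Of the 10 genes, 4 had an unadjusted edgeR p under 0.05 within the second number, where 7.66% of tested genes did: Hopx at -0.98 (SE 0.19), Ankrd1 at -0.43 (SE 0.13), Mycn at -0.50 (SE 0.14) and Irx4 at -0.85 (SE 0.32), with edgeR adjusted p of 0.266, 0.480, 0.442 and 0.603; of the 10, 0 passed adjustment, while 0.0369% of tested genes did. In each of these 4, both deletion libraries were below both wild types, as they also were in Irx3 and Irx5. The share of all genes without overlap was not computed for 2 against 2 libraries, so this separation adds nothing to the p-values. Within the first number 1 of the 10 did, where 7.16% of tested genes did: Tbx3 at 1.38 (SE 0.51, edgeR adjusted p = 0.665), against 0.09 (SE 0.16) within the second. Ankrd1 was the only chamber-type gene below 0 in both, at -0.55 (SE 0.29) within the first.

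Irx5 took opposite sides in the first and second numbers, with 2 against 2 libraries in each. The share of all genes that separate in this way was not computed. Within the first number its 2 deletion libraries, at 1.91 and 3.42 CPM, were above its 2 wild types, at 1.56 and 1.51 CPM. Within the second they were at 1.70 and 1.53 CPM, below 3.40 and 1.99 CPM in wild type. The test of the difference between the genotype effects, over the 8 libraries of both numbers, gave -1.52 (SE 0.65, second minus first, unadjusted p = 0.0475) with an edgeR adjusted p of 0.605, and the adjusted p was 0.605 or more for every one of the 10 genes; over all genes 2 of 16303, or 0.0123%, passed.

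Apart from genotype, libraries of the first number were higher than the rest in Nppa, at 2.97 (SE 0.95, log2, edgeR adjusted p = 0.0772), and in Hopx, at 0.97 (SE 0.28, edgeR adjusted p = 0.0563). Of the 10 genes 0 passed that test, while 9.84% of all genes did. The first number includes deletion 2, at 7.71 CPM of Nppa. Its other libraries were at 0.624 CPM (deletion 1), 1.20 CPM (wild type 1) and 1.42 CPM (wild type 2), and the rest at 0.0531 to 0.944 CPM. This comparison was not run without deletion 2.

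**Figure D4:**
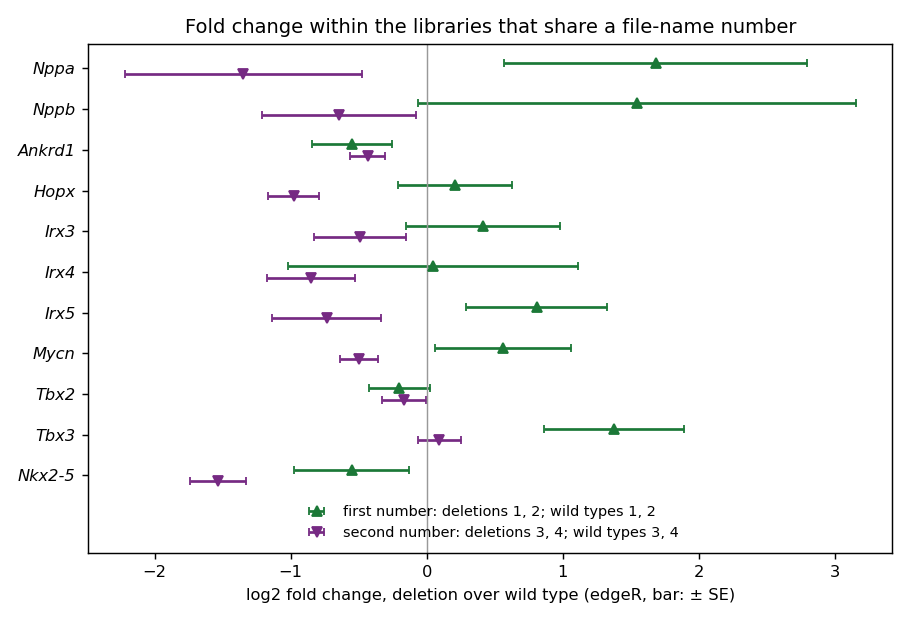
Log2 fold change (deletion over wild type, edgeR, bars ± SE) of the 10 genes and Nkx2-5 within the libraries that share the first file-name number (triangles up) or the second (triangles down), 2 deletion and 2 wild-type libraries in each. Ankrd1 and Tbx2 lie together on the left of 0, while Nppa is at 1.68 within the first number and at -1.35 within the second. The first number includes deletion 2, with 7.71 CPM of Nppa.

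Genes around the 10 in the same programme were counted from lists. Tbx5 and Tbx20 stand in both the chamber myocardium and the T-box list, and Myh7 and Csrp3 in both the chamber myocardium and the stress and stretch list. The counts of these lists are therefore not separate. Of 29 tested chamber myocardium genes outside the 10, 20 were below 0, where 49.4% of all tested genes were, with a median log2 fold change of -0.16; 3 were lower and 1 higher at an unadjusted edgeR p under 0.05, where 2.94% and 2.32% of tested genes were, and 0 passed adjustment. The smallest p belonged to Sln, the gene of the calcium pump inhibitor sarcolipin, which averaged 12.6 ± 5.04 CPM (SD, n = 5) in deletion libraries and 34.4 ± 11.6 CPM (SD, n = 4) in wild type. Its log2 fold change was -1.44 (SE 0.29, edgeR adjusted p = 0.446). Without deletion 2 the median of the list was -0.17 with 23 of 29 below 0, where 50.4% of all tested genes were.

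Of the 14 genes of the outflow tract and atrioventricular canal programme, 5 were below 0 and 9 above, where 49.4% of all tested genes were below. Their median was 0.17, or 0.20 without deletion 2. At an unadjusted edgeR p under 0.05, 3 were lower and 1 higher, where 2.94% and 2.32% of tested genes were. The smallest p belonged to Rspo3 and Sema3c, both lower on average in the deletion, at log2 fold changes of -0.72 and -0.81 (edgeR adjusted p of 0.815 and 0.896).

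Among 8 tested T-box genes outside the pair, Tbx20, a repressor of Tbx2 in the mouse heart, averaged 688 ± 88.0 CPM (SD, n = 5) in deletion libraries and 481 ± 172 CPM (SD, n = 4) in wild type, or 0.52 as a log2 fold change (SE 0.22, edgeR adjusted p = 0.896). Tbx1 was the T-box gene with the smallest p, at -0.98 (SE 0.40). The median of the 8 was 0.0010, and -0.07 without deletion 2.

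Of the stress and stretch response genes, 12 of 14 were tested and 8 were below 0, where 49.4% of all tested genes were, with a median of -0.13. At an unadjusted edgeR p under 0.05, where 2.94% of tested genes were lower and 2.32% higher, 2 were lower and 0 higher. These were Npr1, the receptor for atrial and B-type natriuretic peptide, at 7.55 ± 0.952 CPM (SD, n = 5) in deletion libraries and 11.7 ± 3.10 CPM (SD, n = 4) in wild type (log2 fold change -0.64, SE 0.20, edgeR adjusted p = 0.896), and Fhl1, a LIM protein gene of the sarcomere, at -0.74 (SE 0.29, edgeR adjusted p = 0.896). Npr1 was thus lower on average while its ligand genes were split by deletion 2. In the absence of deletion 2 Npr1 was at -0.61 (SE 0.21) and the median of the list at -0.16.

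Of the Mycn relatives and growth genes, 12 of 12 were tested and 7 were above 0 with a median of 0.02, where 49.4% of all tested genes were below 0. Of these 12, 0 had an unadjusted edgeR p under 0.05, where 5.27% of tested genes did. Without deletion 2, 9 were above 0 with a median of 0.09, where 50.4% of all tested genes were below 0. The smallest p belonged to Max, the dimerization partner of Myc proteins, at 0.16 (SE 0.09), and to Mxd1, an antagonist of Myc, at 0.18 (SE 0.12). Of the Iroquois genes outside the 10, Irx2 was tested with all libraries, at 0.10 (SE 0.33). Without deletion 2 it was at -0.098 (SE 0.32), and Irx1, which passed the filter there, was at -0.37 (SE 0.60).

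Reads could be shared with antisense partners for 4 of the 10 genes, since the strand setting of the counting is not given in the sources used here. The antisense gene Gm13054 covers 61.5% of the exon bases of Nppa and had at most 1 count in any library. Hopxos covers 27.2% of Hopx and had 0 counts in every library. Irx3os covers 4.49% of Irx3, with at most 10 counts, and Tbx3os1 1.74% of Tbx3, with at most 7.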

How the data were processed

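Libraries were made from total RNA using a SMART-Seq kit for low input, as the labels' protocols state. The authors deposited 1 file per library with unnormalized read counts by gene symbol; the submitters' processing notes name STAR 2.5.0c, Picard, HTSeq 0.6.0, DESeq2 and mm10, while the annotation is not given in the sources used here. Rows that name no gene (20.6% to 23.5% of reads) were left out.

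Gene counts went into edgeR 4.0.16 under R 4.3.3 (quasi-likelihood, robust, TMM, filterByExpr with a minimum count of 10 in 4 libraries, genotype as the only term, Benjamini-Hochberg over 16522 genes, threshold 0.05). The prior count for log2 CPM was 2. Alternatives were limma 3.58.1 (voom with sample weights) and DESeq2 1.42.0. Single genes were also tested by exact two-sided permutation over 126 labellings (70 without deletion 2). Exon lengths and coordinates are from GENCODE M21. Every pair of libraries differed by more than sampling noise.

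The genes, lists and tests were chosen with earlier results of these data known. All 10 genes and Nkx2-5 are named, with the 2 genes of smallest edgeR p in each context list, of which 1 is not reported here; Myl2, Hey2, Nr2f2 and Myl4, which stand outside that rule, were chosen after their values were seen, as was scaling to cardiomyocyte markers. For replicate numbers 1 to 4, deviations from the group mean correlated between the genotypes at 0.242, 0.137, 0.227 and 0.176, all over 0.1. Libraries of unequal number were not correlated in this way, so these values do not show that equal numbers were matched. The labels do not state a pairing, and the replicate block is given as an alternative fit only. Deletion 5 has no partner and adds nothing to the blocked estimate.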

Additional observations from a re-analysis of the deposited data

Results flagged for a closer look

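Within the 5 deletion libraries, deletion 2 stood apart in Nppa, at 7.71 CPM, and in Irx4, at 21.3 CPM: its gap to the next library took up more of the group's range than Dixon's 95% critical value allows. For Nppa the gap was 0.925 of the range and for Irx4 0.727, against a critical value of 0.710. These were 2 of 24 group tests (the 10 genes, Nkx2-5 and the chamber-type difference in each genotype), where chance gives about 1 in 20. For Irx4, wild type 2 was as high, at 21.8 CPM. Dixon's test assumes normally distributed values, and for single genes it was run on CPM, not on log2 CPM. In log2 CPM of Nppa, deletion 2 was at 2.96 and the other deletion libraries at -3.22 to -0.56. For Irx4 it was at 4.42 and the others at 1.83 to 3.07. The gaps on the log2 scale were not tested. Deletion 2 had been set apart before this test, so the 2 flags are no separate support.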

How the results depend on the processing

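Ankrd1, Tbx2, Tbx3 and Nkx2-5 kept their sign in every alternative run, and none of the 10 genes passed an adjusted p of 0.05 in any. Leaving out each library in turn gave Nppa -1.69 to 1.19, Nppb -0.27 to 1.18, Irx4 -0.91 to 0.28, Irx5 -0.16 to 0.38 and Mycn -0.17 to 0.31, all log2; 0 to 1 genes were called over the table (the 1 without wild type 3), and 0 to 2 of the 10 had an unadjusted p under 0.05, where 3.11% to 6.08% of all genes did. With the replicate block Nppa was at -0.18 and Mycn at -0.00069, and the block changed no call. Within the first file-name number Hopx was at 0.21, Irx3 at 0.41, Irx4 at 0.047 and the mean of Tbx2 and Tbx3 at 0.59; within the second Nppa was at -1.35, Nppb at -0.65, Irx5 at -0.73 and Mycn at -0.50, and edgeR called 6 genes over the table. With limma-voom Nppa was at -1.16, Irx5 at -0.23 and Mycn at -0.21, with 4 genes called over the table. DESeq2 called 38, gave no p for Nppa, and without deletion 2, an alternative added after seeing the data, called 65 including Nkx2-5 (-1.20, adjusted p = 0.00395), with Nppa at -1.71, Nppb at -0.27, Irx5 at -0.16 and Mycn at -0.061. The number of the 10 genes with an unadjusted p under 0.05 was 1 without the low-count filter (5.51% of all genes), with the block, with the file-name number as covariate (6.13%), within the first number and with DESeq2, 2 with limma-voom, 3 with DESeq2 without deletion 2 and 4 within the second number. Apart from leaving out deletion 2 or wild type 2, described above, and the fits with fewer libraries, the cause of these shifts was not tested. Depth limits Nppa, Nppb, Irx3 and Irx5 most. Nppa, Irx3 and Irx5 had at most 117 counts in any library other than Nppa of deletion 2. Nppb ranged from 25 counts in wild type 1 to 405 in deletion 2.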
